A study of Mus musculus with 4 samples.

Results

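Hic1 Snai2 stroma is a set of 401 cells among the 16220 kept cells of 3 libraries of developing mouse kidney, and among 22838 kept cells when a library of transplanted kidney is counted too. A kept cell had at least 500 genes and at most 20% mitochondrial UMIs (unique molecular identifiers, counts of captured RNA molecules). A member had at least 1 UMI of Pdgfra, at least 1 UMI of Hic1 or Snai2, no UMI of Foxd1 or Pecam1 and at most 2 UMIs of Penk, so the cells were selected on the measured levels of these 6 genes, which are given below without a test. The members were 178 of 3565 cells at E15.5, 101 of 4563 at E17.5 and 122 of 8092 at P0, the day of birth. E15.5 and P0 kidneys came from ICR mice and E17.5 kidneys from C57BL/6 mice, all labelled wild type, with 10x Genomics 3′ v2 chemistry and 1 library per age. Strain goes with the E17.5 library, so age and strain cannot be told apart there, and the variation between animals and litters at one age was not measured. The transplant library (C57BL/6N kidneys of E12.5 embryos, placed in the epididymal fat of a host for 12 days) enters no comparison.

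Interstitial stroma fills the space between nephrons and ducts. In the embryonic kidney it descends largely from Foxd1 progenitors at the cortical rim and sorts into cortical and medullary layers, with Penk a marker of the medullary layer, and it also gives rise to pericytes, mesangial cells and vascular smooth muscle. Pdgfra is a receptor for platelet-derived growth factors on mesenchymal cells, Hic1 a zinc finger repressor that marks quiescent mesenchymal progenitors in several organs, Snai2 a zinc finger repressor of epithelial adhesion genes, and Meis1 a homeodomain factor of kidney stroma. The rule leaves out cells in which Foxd1 or more than 2 Penk UMIs were detected, which does not show that the members lack these transcripts: 47, 18 and 22 members had 1 Penk UMI and 21, 9 and 7 had 2.

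The libraries held 92387054 (E15.5), 42430540 (E17.5) and 99068204 (P0) UMIs, of which the members held 3774825, 614240 and 1013840. Median UMIs per member were 19563, 5278 and 7368.5, against 22734, 7261 and 9996.5 in all kept cells, so the E15.5 members were the most deeply sequenced. Pairs of libraries, the transplant included, shared 27 to 108 barcodes. No shared barcode met the conditions of a member in both libraries of a pair. Despite the wild type label, the P0 library contained 8181 UMIs of a tdTomato reporter, 395 of them in members, and the other libraries contained none. Globin and other erythroid transcripts summed to 5043 CPM (UMIs per 1000000 UMIs of a cell set) in E15.5 members and to 8 to 10 CPM at the later ages. Doublet calling marked 3, 7 and 6 members, which were kept in the main counts.

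The genes of the rule lie on different chromosomes or far apart in GRCm38: Pdgfra at chr5:75152292-75198215 (plus strand), Hic1 at chr11:75164565-75169519 (minus strand), Snai2 at chr16:14705852-14709385 (plus strand), with Meis1 at chr11:18879817-19018985 (minus strand). Hic1 stood at 85.8 CPM in E15.5 members, 169 at E17.5 and 156 at P0, and Snai2 at 153, 176 and 101 CPM. Pdgfra stood at 125, 233 and 180 CPM. Many members sat at the thresholds: 32, 47 and 65 had a single UMI of Hic1 and Snai2 together, and 74, 71 and 84 had a single UMI of Pdgfra. Just outside the rule, 89, 78 and 115 cells met every condition but had no UMI of Hic1 or Snai2, 74, 23 and 22 had 1 UMI of Foxd1, and 19, 9 and 14 had 3 UMIs of Penk. The excluded neighbours also carried both genes, with Hic1 at 136, 192 and 93.6 CPM in Foxd1 cells (Pdgfra cells with no Pecam1 UMI, at least 1 Foxd1 UMI and at most 2 Penk UMIs) and at 113, 146 and 116 CPM in Penk cells (at least 3 Penk UMIs and no UMI of Foxd1 or Pecam1). The 221, 26 and 28 cells with both Foxd1 and at least 3 Penk UMIs are in no set. Snai2 likewise stood at 106, 106 and 121 CPM in Foxd1 cells and at 181, 166 and 114 CPM in Penk cells.

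Members made up 4.99% of kept cells at E15.5 (95% exact Clopper-Pearson interval 4.30 to 5.76), 2.21% at E17.5 (1.81 to 2.68) and 1.51% at P0 (1.25 to 1.80). With every cell thinned to 5000 UMIs and shallower cells left out, the shares were 4.87%, 1.14% and 1.04%, with 3, 47 and 22 members left out as too shallow. Thinning also changed who qualified at E15.5: of the 164 cells picked there, 68 had a Foxd1 UMI and 47 had at least 3 Penk UMIs at full depth, and 70 were members at full depth. As a measure of free RNA, cells with at least 2 UMIs of the epithelial gene Epcam met the Pdgfra and Hic1 or Snai2 conditions in 6.22% of 852 cells at E15.5, 0.693% of 1444 at E17.5 and 0.439% of 2964 at P0, at median depths of 28903.5, 9429 and 13068.5 UMIs. These shares, and those of Pecam1 cells below, were counted without the Foxd1, Penk and Pecam1 conditions of a member. They are therefore not like for like with the member shares, which include those exclusions. At E15.5 the unthinned member share did not exceed that background and is not read as a difference from the later ages. In thinned cells the background was 1 of 407 cells at E15.5, 1 of 977 at E17.5 and 0 of 1925 at P0, which allows up to 0.156%. Cells with at least 3 UMIs of Pecam1 met the same conditions in 7.04% of 213, 0.262% of 381 and 1.22% of 822. The P0 interval (0.585 to 2.23) held the unthinned member share, which is not read as exceeding it. In thinned cells 0 of 58, 0 of 192 and 2 of 472 met them. A UMI of Hic1 or Snai2, whatever the Pdgfra count, was present in 62.0%, 45.9% and 34.8% of the unthinned Pecam1 cells. Intervals and limits cover counting error only.

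**Figure D1:**
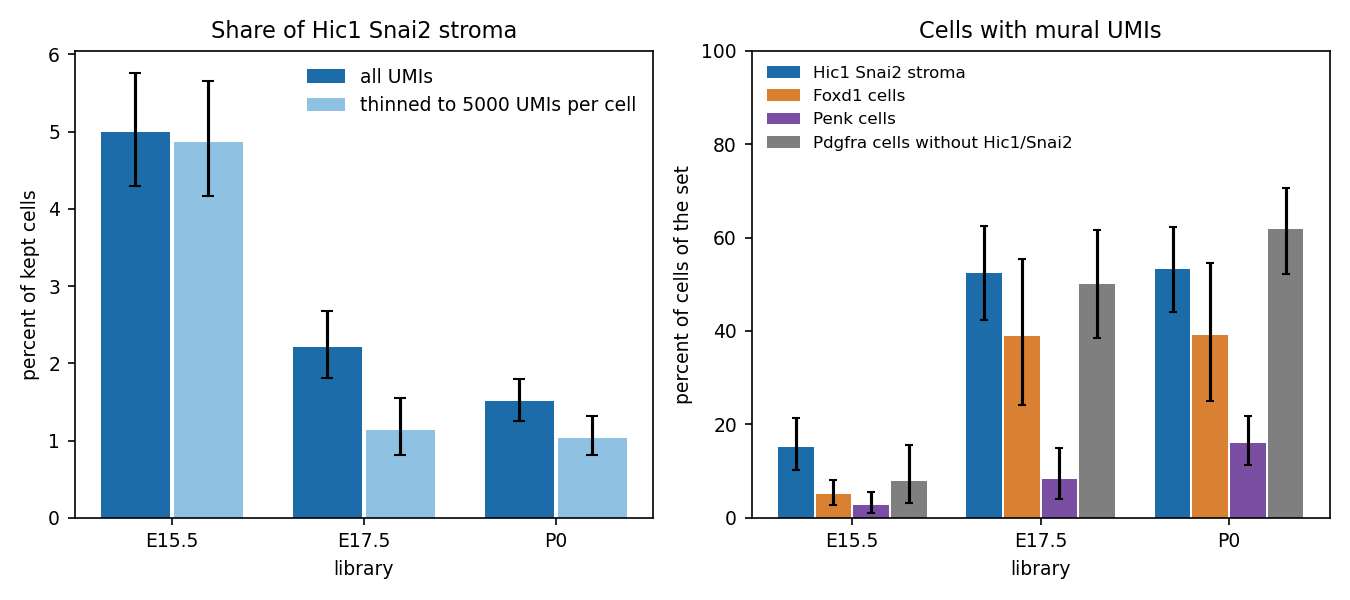
Left, percent of kept cells that were Hic1 Snai2 stroma in each library, at full depth (4.99%, 2.21% and 1.51%) and with each cell thinned to 5000 UMIs; bars are the share and lines its exact 95% interval. Right, percent of cells with at least 5 mural UMIs per 10000 in 4 sets of Pdgfra cells, where members (15.2%, 52.5% and 53.3%) lie above Penk cells in each library and below the cells without Hic1 or Snai2 at P0.

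Many members, like other Pdgfra cells, carried transcripts of mural cells, the pericytes and smooth muscle around vessels. Counting 7 mural genes (Rgs5, Kcnj8, Abcc9, Myh11, Ren1, Notch3 and Higd1b), 27 of 178 members had at least 5 such UMIs per 10000 at E15.5 (15.2%, interval 10.2 to 21.3), 53 of 101 at E17.5 (52.5%, 42.3 to 62.5) and 65 of 122 at P0 (53.3%, 44.0 to 62.4). Pdgfra cells that met every other condition but had no UMI of Hic1 or Snai2 reached 7.87%, 50% and 61.7%, above the members at P0. Penk cells reached 2.68%, 8.40% and 16.1%, Foxd1 cells 5.05%, 39.0% and 39.1%, and Epcam cells at most 0.675%. The mural threshold was chosen after the data had been seen. A UMI of Epcam or Cdh1 was present in 47, 14 and 17 members, and the epithelial list of 10 markers summed to 440, 383 and 148 CPM in members, against 2125, 3215 and 3609 CPM in Epcam cells. Markers of other cells were low: the 6 leukocyte markers summed to 9.8 to 17.0 CPM, the 10 neural and glial markers to 6.90 to 12.45 CPM with Sox10 and Foxd3 at 0 in all libraries, and the 7 endothelial markers, of which Pecam1 was at 0 by the rule, to 55.4 to 77.9 CPM.

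Members were set against Pdgfra cells that met every condition except Hic1 and Snai2 (89, 78 and 115 cells). Those cells had the higher epithelial list sums, at 1710, 1032 and 1201 CPM against 440, 383 and 148 CPM in members. Higher stroma markers in members therefore do not by themselves show a stromal identity. UMIs were summed per library and cell set and tested with edgeR's quasi-likelihood test with the library as a block (3 against 3, Benjamini-Hochberg over 8500 genes). Members had 141 genes higher (1.66%) and 230 lower (2.71%) at an adjusted p under 0.05, 4.36% in all. Of 9 tested stroma markers 5 were higher and none lower, with a list median log2 difference of 1.73 against -0.01 over all genes. Related lists were mixed. Of 17 fibroblast and adventitia genes 2 were higher (Dcn and Fbln1) and 2 lower (Ly6a at -2.02 and Sfrp2 at -1.50). Of 32 mesenchymal transcription factors 6 were higher and 3 lower (Osr2, Foxp1 and Sox9).

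Meis1, the one named marker that the rule did not use, stood at 143, 200 and 146 CPM in members of the 3 libraries and at 24.6, 55.7 and 55.0 CPM in the cells without Hic1 or Snai2. The lowest member level was above the highest level of the other cells, and the log2 difference was 1.98 ± 0.22 (SE, n = 3 libraries, edgeR adjusted p = 0.0067). Tcf21, a basic helix-loop-helix factor of kidney mesenchyme (1.73 ± 0.29), Meis2 (1.44 ± 0.29) and Col1a1, a chain of type I collagen (1.88 ± 0.39), were also among the higher stroma markers. When cells with an Epcam or Cdh1 UMI were taken from both sets, a choice made after seeing the data, 6 of 9 stroma markers were higher, with Meis2 no longer among them and Meis1 at 0.93; without cells with mural UMIs all 9 were. After thinning to 5000 UMIs per cell Meis1 and Col1a1 were not called, nor were Loxl1, Mfap4, Mfap2, Eln and Efemp2 of the elastic fibre genes that follow, and 60 of the 371 calls were kept.

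Elastic fibre genes separated the same sets. Of 15 tested, 8 were higher in members and none lower, with a median of 1.31. Emilin1, which ties elastin to microfibrils, stood at 216, 332 and 331 CPM in members and at 22.2, 123 and 104 CPM in the other cells (log2 difference 2.14 ± 0.33, edgeR adjusted p = 0.017). Its member levels were above those of the other cells in every library. Loxl1, a crosslinking enzyme of elastin (1.74 ± 0.21), Fbln5, a fibulin that organises elastic fibres (1.61 ± 0.22), and Mfap4, a microfibril-associated protein (1.53 ± 0.18), were also higher, with Eln, elastin itself, Fbln1, Mfap2 and Efemp2. Among 23 collagens and their enzymes 5 were higher, led by Col14a1, a fibril-associated collagen, at 135, 218 and 206 CPM in members and 15.6, 65.4 and 63.0 CPM in the other cells (2.22 ± 0.28). Both lists kept higher members without the Epcam or Cdh1 cells: 6 of 15 elastic fibre genes and 6 of 22 collagens and their enzymes. The elastic fibre list did not set members apart from Foxd1 cells, with 0 of 15 genes called and a median of 0.10. Against Penk cells 3 of 16 were higher and 2 lower, with a median of -0.20.

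Between the same sets 0 of 13 mural genes were called by edgeR or by DESeq2, with 2 at an unadjusted edgeR p under 0.05 and a median log2 difference of 0.36. Without the cells with an Epcam or Cdh1 UMI, 3 were lower, Rgs5, Mcam and Ren1, and without E15.5 replicate 1, 2 were lower, Mcam and Ren1. Without the cells with mural UMIs, a set cut on mural genes, 5 of the 8 still tested were higher. Among all genes the highest differences outside the lists included Ldb2, a LIM domain-binding cofactor, at 103, 163 and 143 CPM in members and 7.27, 44.2 and 47.0 CPM in the other cells (log2 difference 2.43 ± 0.38, edgeR adjusted p = 0.018). Tmem119 (2.51 ± 0.43), the forkhead factor Foxp2 (2.44 ± 0.46), Dact3, an intracellular modulator of Wnt signals (2.41 ± 0.39), Alx1, a homeodomain factor of mesenchyme (2.35 ± 0.43), and the guidance cue Sema3a (2.29 ± 0.29) were higher in all 3 libraries; Tmem119, Alx1, Sema3a and Dnm3os were not called after thinning. Dnm3os (2.86 ± 0.53) is transcribed antisense to Dnm3, and how the counting treated strand is not given in the sources used here, so its reads cannot be told apart from those of its partner.

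The genes lower in members than in the cells without Hic1 or Snai2 were led by genes of nephron epithelium. Sim2, a transcription factor, stood at 1.32, 3.26 and 0 CPM in members and at 43.6, 42.3 and 33.0 CPM in the other cells (-4.92 ± 0.44, edgeR adjusted p = 0.0055). Irx1 and Irx2, homeodomain factors of the nephron, differed by -3.90 ± 0.40 and -4.09 ± 0.56, Krt23, a keratin, by -4.13 ± 0.55, and Lgr5, a receptor for R-spondins, by -3.08 ± 0.38. Of 9 epithelial markers 6 were lower (Epcam -2.51 ± 0.22, Lhx1 -2.86 ± 0.44, Pax8, Wfdc2, Pax2 and Cdh16). Of 22 Hox genes 9 were lower, 8 of them from the Hoxb cluster (Hoxb6 -2.09 ± 0.20, Hoxb8 -2.32 ± 0.29), and Hoxd11 was higher. The epithelial list summed to 1710, 1032 and 1201 CPM in the other cells and to 440, 383 and 148 CPM in members, and its part in the differences was not tested beyond the following removal. Without cells with an Epcam or Cdh1 UMI the counts were 71 higher and 94 lower, with 90 of the 371 genes still called and 1 of 16 Hox genes lower. Leaving out E15.5 gave 241 higher and 371 lower, leaving out E17.5 gave 94 and 156, leaving out P0 gave 85 and 117, and without the library block no gene was called by edgeR (665 at an unadjusted p under 0.05).

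Members were next compared with the 297, 41 and 46 Foxd1 cells, the presumed nephrogenic rim, although their rim list sum was not above that of members at P0 (below). Few genes separated the sets: 38 of 7760 were higher in members (0.49%) and 7 lower (0.0902%), 0.58% in all, with 603 at an unadjusted p under 0.05. Alx1 and smooth muscle genes led the higher side, and Crabp1 the lower. Of 13 mural genes 7 were higher and none lower, with a median log2 difference of 0.88 against 0.00 over all genes.

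Tagln, transgelin of smooth muscle, stood at 240, 368 and 262 CPM in members at E15.5, E17.5 and P0, and at 70.2, 35.5 and 74.9 CPM in Foxd1 cells. Every member level was above every Foxd1 level (4-fold higher in the fit, edgeR adjusted p = 0.0053). Acta2, smooth muscle actin, stood at 509, 1236 and 852 CPM against 130, 454 and 501 CPM (log2 difference 1.45 ± 0.18), and the ranges did not overlap, 509 against 501 CPM being the nearest values. Myl9, the regulatory myosin light chain, stood at 503, 737 and 515 CPM against 251, 440 and 270 CPM (0.92 ± 0.09), also without overlap. Des, an intermediate filament protein of muscle and pericytes (1.52 ± 0.20), Cnn1, calponin (2.33 ± 0.30), Kcnj8, a potassium channel subunit of pericytes (0.79 ± 0.13), and Myh11, smooth muscle myosin (2.26 ± 0.39, with most of its P0 UMIs in 1 member), were the other 4, and the smooth muscle actin Actg2 (2.57 ± 0.43) was higher outside the list. A smaller share of Foxd1 cells than of members had mural UMIs in each library (above), and without such cells in either set, a choice made after seeing the data, 3 of 7 tested mural genes were still higher: Acta2 (1.33), Tagln (1.69) and Myl9 (0.69).

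**Figure D2:**
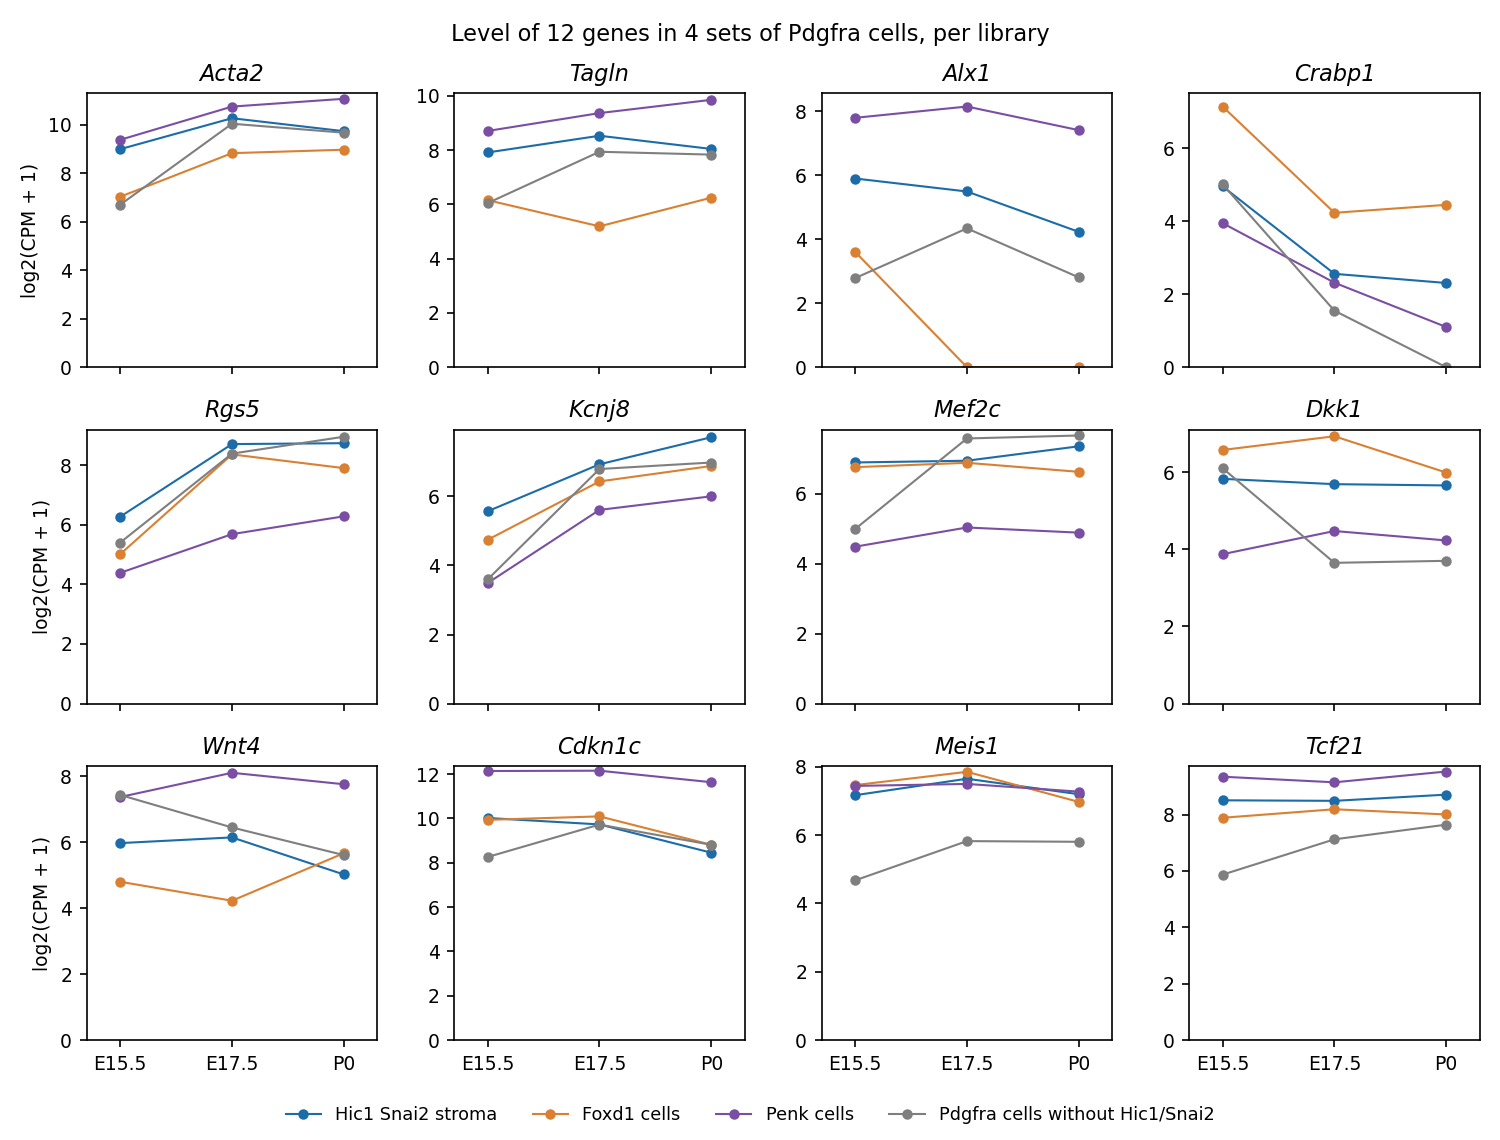
Level of 12 genes as log2(CPM + 1) in the E15.5, E17.5 and P0 libraries for members, Foxd1 cells, Penk cells and Pdgfra cells without Hic1 or Snai2; each point is 1 library's sum and lines join the libraries of one set. Tagln lies between Penk and Foxd1 cells in each library, and Meis1 in members is above the cells without Hic1 or Snai2.

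Alx1 gave the highest difference from Foxd1 cells, at 58.5, 44.0 and 17.8 CPM in members and 11.2, 0 and 0 CPM in Foxd1 cells (2.63 ± 0.37, edgeR adjusted p = 0.021). The member level was higher in each library. The chemokines Cxcl14 (2.60 ± 0.34), which attracts myeloid cells, and Cxcl13 (2.17 ± 0.31), which attracts B cells, were higher too. Tinagl1, a secreted matrix protein, stood at 26.2, 132 and 207 CPM in members and 7.14, 14.2 and 47.8 CPM in Foxd1 cells (2.14 ± 0.21), and Serpini1, a serine protease inhibitor, differed by 2.09 ± 0.35. Col6a1 (0.71 ± 0.12) and Col4a2 (0.80), chains of beaded-filament and basement membrane collagen, were among the 38, as were the metallothioneins Mt1 (1.71) and, in 2 of 3 libraries, Mt2 (2.24), whose reads may be split between them; 1 member held 62.6% and 44.8% of the E15.5 UMIs of Mt1 and Mt2.

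On the lower side Crabp1, a retinoic acid-binding protein, stood at 29.9, 4.88 and 3.95 CPM in members and 140, 17.7 and 20.8 CPM in Foxd1 cells (-2.22 ± 0.19, edgeR adjusted p = 0.0039). Wt1, a zinc finger factor of podocytes and progenitors, stood at 40.3, 16.3 and 30.6 CPM against 90.6, 92.3 and 179 CPM (-1.72 ± 0.25), with no overlap. Dlk1, an imprinted membrane protein (-1.23 ± 0.16), Shisa3, an inhibitor of Wnt and FGF receptors (-1.12 ± 0.11), Igfbp6 (-2.21 ± 0.38) and Klf2 (-0.66 ± 0.09) were also among the 7 lower genes. The rim list as a whole had 2 of 10 genes lower, Crabp1 and Dlk1, with a median of -0.72. With Foxd1 counted, the list summed to 1433, 1930 and 1183 CPM in Foxd1 cells and 563, 1086 and 1216 CPM in members. In Penk cells it summed to 743, 1397 and 1486 CPM, so at P0 the Foxd1 cells had the lowest sum of these sets. Aldh1a2, the retinoic acid-synthesising enzyme of the rim, stood at 88.0, 76.5 and 84.8 CPM in members and 307, 124 and 123 CPM in Foxd1 cells but did not pass (-1.28 ± 0.24, edgeR adjusted p = 0.061). Leaving out E15.5, which holds most Foxd1 cells, left no gene called in either direction by edgeR (425 at an unadjusted p under 0.05), while leaving out E17.5 gave 26 higher and 5 lower and leaving out P0 gave 93 and 50; 29 of the 45 genes were also called by DESeq2.

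The comparison with 261, 119 and 205 Penk cells, the presumed medullary stroma, gave far more differences. Of 9216 genes 292 were higher in members (3.17%) and 310 lower (3.36%), 6.53% in all. The higher genes included Rgs5, Mef2c, Dkk1, Dkk2 and Pdgfrb, and the lower ones Wnt4, Lef1, Tagln, Gas6 and Hoxa11, described by list below. Penk itself, which separates the sets by the rule, stood at 23.6, 58.6 and 35.5 CPM in members and 1133, 2106 and 2217 CPM in Penk cells.

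The mural genes that were called divided by kind. Rgs5, a pericyte regulator of G protein signalling, stood at 76.0, 415 and 424 CPM in members and 19.9, 50.3 and 76.7 CPM in Penk cells (log2 difference 2.42 ± 0.16, edgeR adjusted p = 1.1e-06). Each library showed the same order, although the E15.5 member level lay just below the P0 level of Penk cells. Abcc9 and Kcnj8, subunits of one pericyte potassium channel, differed by 2.17 ± 0.24 and 1.79 ± 0.16, Mcam by 1.92 ± 0.22 and Cspg4, the NG2 proteoglycan, by 0.90 ± 0.23. The called contractile genes lay on the other side, with Tagln at 416, 657 and 922 CPM in Penk cells (-1.13 ± 0.15), Acta2 at 666, 1723 and 2154 CPM (-0.73 ± 0.14) and Myl9 at 683, 1065 and 850 CPM (-0.56 ± 0.07). In all, 5 of 13 mural genes were higher and 3 lower. Myh11, Cnn1 and Des, muscle genes of the same list, were not among the called genes. Acta2 was not called by DESeq2 or without E17.5, nor Cspg4 by DESeq2, without E17.5 or without P0. Without cells with mural UMIs Rgs5 (1.36), Kcnj8 (0.93) and Abcc9 (1.36) were still higher, Mcam (1.08) and Cspg4 (0.15) were not called, and the 3 contractile genes were lower by 0.84 to 1.70 on the log2 scale.

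Transcription factors of mesenchyme split as well, 8 higher and 7 lower of 33. Mef2c, a muscle and vascular factor, stood at 118, 122 and 163 CPM in members and 21.4, 31.8 and 28.6 CPM in Penk cells (2.39 ± 0.15, edgeR adjusted p = 7.1e-07), with no overlap. Ebf1 (1.62 ± 0.09), Heyl, a Notch target of mural cells, and Foxs1, a forkhead factor of pericytes (2.26 ± 0.51), were also higher, with Twist1, Tshz2, Zeb1 and Foxp1. The lower factors were Alx1 (-2.33 ± 0.18), Tshz3 (-1.58 ± 0.16), Tbx3 (-1.40 ± 0.18), Prrx1, Prrx2, Tcf21 (-0.78 ± 0.07) and Zeb2. Alx1 was thus higher in members than in Foxd1 cells and lower than in Penk cells, in each library of both comparisons. Meis1 did not pass either test (-0.10 ± 0.11 against Penk cells and -0.14 ± 0.13 against Foxd1 cells).

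**Figure D3:**
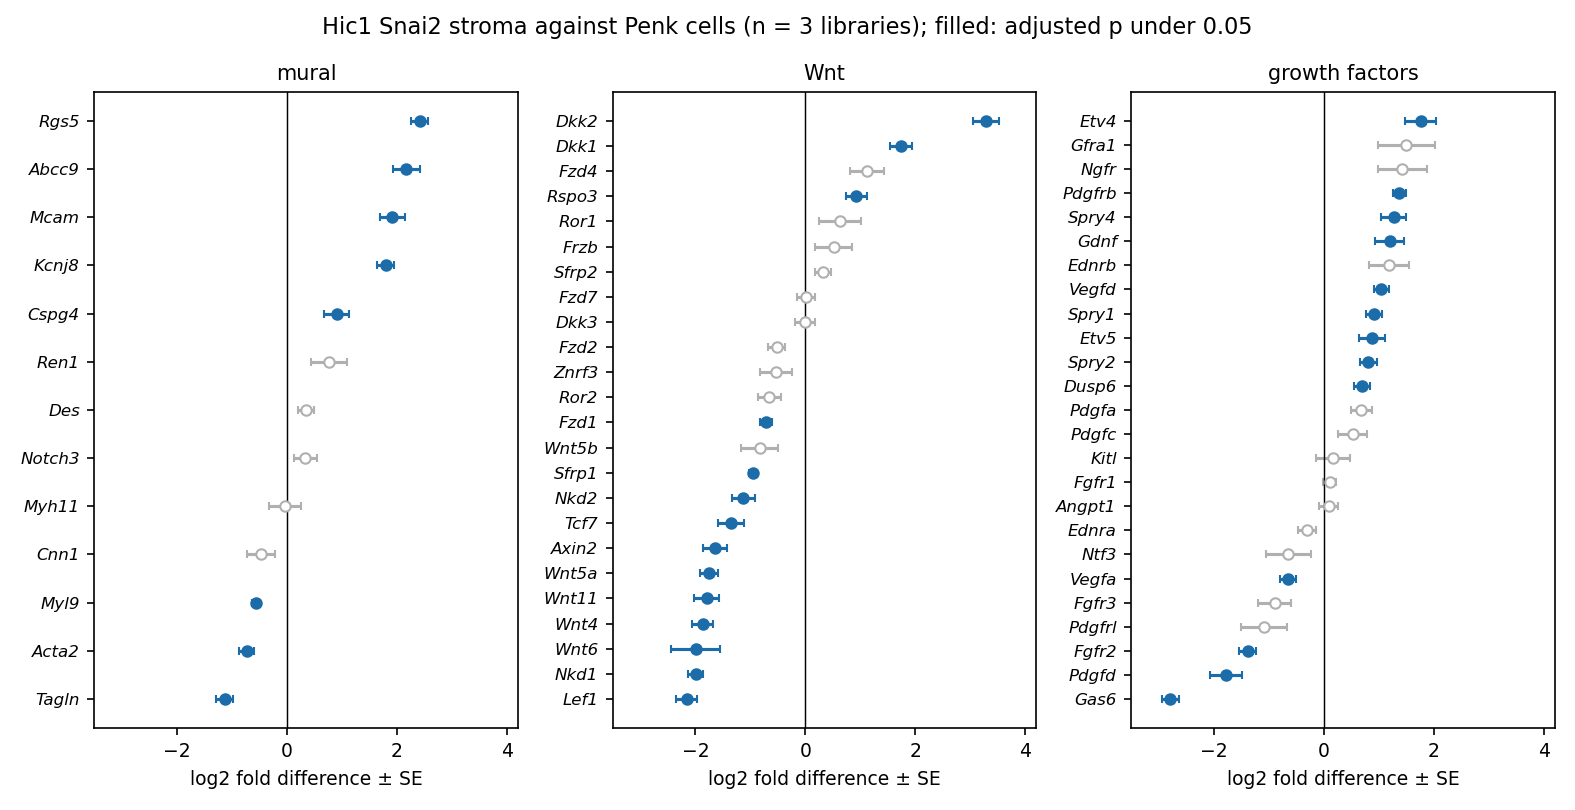
Log2 fold difference of members from Penk cells (x axis, ± SE, 3 libraries) for every tested gene of the mural, Wnt and growth factor lists; filled points have an adjusted p under 0.05. Rgs5 at 2.42 and Dkk2 at 3.28 lie at the top of their lists, and Tagln at -1.13, Lef1 at -2.16 and Gas6 at -2.79 at the bottom.

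The Wnt list had 11 of 24 genes lower and 3 higher. Wnt4, which drives stromal and epithelial differentiation in the medulla, stood at 62.0, 70.0 and 31.6 CPM in members and 165, 275 and 216 CPM in Penk cells (-1.87 ± 0.19, edgeR adjusted p = 3.7e-05). Wnt5a, a ligand of the non-canonical branch, stood at 45.8, 42.3 and 13.8 CPM against 151, 109 and 71.5 CPM (-1.75 ± 0.16). Neither gene's ranges overlapped, and Wnt11 (-1.79 ± 0.23) and Wnt6 were lower as well. Targets and feedback genes of the canonical branch followed: Lef1, a DNA-binding partner of beta-catenin, stood at 24.6, 17.9 and 11.8 CPM against 86.4, 123 and 79.5 CPM (-2.16 ± 0.20), and Axin2 (-1.64 ± 0.22), Nkd1, Nkd2 and Tcf7 were lower, with Sfrp1, a secreted Wnt inhibitor, and Fzd1, a Wnt receptor.

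The 3 higher genes of the list encode secreted proteins. Dkk2, a ligand of Wnt co-receptors, stood at 99.1, 104 and 159 CPM in members and 12.3, 18.5 and 7.44 CPM in Penk cells (3.28 ± 0.23, edgeR adjusted p = 2e-06), and Dkk1, a secreted Wnt inhibitor, at 55.6, 50.5 and 49.3 CPM against 13.6, 21.2 and 17.7 CPM (1.74 ± 0.19). Rspo3, an enhancer of Wnt signals, was higher by 0.92 ± 0.19. The median of the Wnt list was -0.68 against 0.01 over all genes. The medullary list had 7 of 9 genes lower, among them Cdkn1c, an imprinted inhibitor of the cell cycle, at 1039, 850 and 350 CPM in members and 4519, 4567 and 3185 CPM in Penk cells (-2.54 ± 0.14). Penk, which chose the other set, is itself a medullary marker, so this list is not independent of the rule.

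Of 25 genes of the growth factor list 9 were higher, 4 lower and 12 not called. Pdgfrb, the receptor of pericytes, stood at 119, 174 and 198 CPM in members and 50.4, 56.9 and 76.1 CPM in Penk cells (1.37 ± 0.12, edgeR adjusted p = 1.1e-05), without overlap. Etv4, a transcription factor induced by FGF signals (1.76 ± 0.28), and Spry1, a feedback inhibitor of the same receptors (0.91 ± 0.15), were higher with Etv5, Spry2, Spry4 and Dusp6, as were the ligands Vegfd (1.05 ± 0.13) and Gdnf (1.19). Gas6, a ligand of TAM receptors, showed the opposite, at 37.4, 53.7 and 23.7 CPM in members and 212, 354 and 280 CPM in Penk cells (-2.79 ± 0.16). Pdgfd, Fgfr2 and Vegfa were also lower.

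Among all genes the highest difference from Penk cells was that of Akr1b7, an aldo-keto reductase known from renin cells, at 34.2, 14.7 and 64.1 CPM in members and 2.08, 0 and 0 CPM in Penk cells (4.80 ± 0.44, edgeR adjusted p = 1.9e-05). Tm4sf1, a membrane protein of vessels, stood at 133, 337 and 664 CPM against 21.6, 22.5 and 52.1 CPM (3.27 ± 0.18). Nostrin, which traffics nitric oxide synthase, differed by 3.22 ± 0.21, Map3k7cl by 3.65 ± 0.40, Rgs4 by 2.88 ± 0.47 and Serpinb1a by 2.60 ± 0.41. Angpt2, a ligand of the endothelial Tie2 receptor, stood at 28.1, 35.8 and 32.5 CPM in members and 4.74, 2.65 and 1.14 CPM in Penk cells and was called higher. Igfbp3, a carrier of insulin-like growth factors (2.53 ± 0.12), Nrp2, a semaphorin co-receptor (2.52 ± 0.24), Ccl11, eotaxin (2.92 ± 0.44), and Cxcl12, a chemokine of stromal niches (0.74 ± 0.10), were higher among the listed genes.

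The lowest genes against Penk cells were led by Nts, neurotensin, at 18.3, 27.7 and 1.97 CPM in members and 177, 377 and 410 CPM in Penk cells (-3.98 ± 0.32, edgeR adjusted p = 5.3e-06). Rtn1, a reticulon (-3.97 ± 0.39), Corin, the protease that activates atrial natriuretic peptide (-3.62 ± 0.38), Col15a1 (-3.59 ± 0.27), Nrxn3, a neurexin (-3.21 ± 0.26), Dach2 (-3.07 ± 0.28), Lrriq1 (-3.01 ± 0.23) and Nav3 (-2.97 ± 0.28) followed. In the Hox list 5 genes were lower (Hoxa10, Hoxa11 at -1.38 ± 0.20, Hoxd9, Hoxd10 and Hoxd11) and Hoxc9 was higher, of 24 tested. Collagens gave 7 lower and none higher of 26, and proliferation genes 4 higher of 20 (Cenpf, Birc5, Ccnb2 and Bub1, by 0.41 to 0.71). DESeq2 called 132 higher and 174 lower, leaving out E17.5 gave 122 and 176, and without the library block the counts were 10 and 39.

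The members themselves differed in which gene admitted them. Both Hic1 and Snai2 were carried by 108 of 178 members of the E15.5 library (60.7%), 34 of 101 of the E17.5 library (33.7%) and 32 of 122 of the P0 library (26.2%), while Hic1 alone was seen in 30, 39 and 64 and Snai2 alone in 40, 28 and 26. After thinning, members with both genes were 23.8%, 35.9% and 27.5%. Members with Hic1 alone were tested against members with Snai2 alone. Of 5077 genes edgeR called none higher (0%) and 2 lower (0.0394%), with 232 at an unadjusted p under 0.05, and DESeq2 called 0 and 1. Both genes act in mitosis: Nusap1, a spindle protein, stood at 49.6, 56.9 and 80.9 CPM in Hic1 members and 149, 147 and 215 CPM in Snai2 members (-1.47 ± 0.21, edgeR adjusted p = 0.017), and Ube2c, which directs degradation of cyclins, at 143, 184 and 294 CPM against 316, 406 and 582 CPM (-1.09 ± 0.16). The ranges of neither gene overlapped, and the 20 proliferation genes had a median of -0.63 against 0.01 over all genes, with Ube2c the only one called. Without E15.5 neither was called (119 genes at an unadjusted p under 0.05), without E17.5 the counts were 1 higher and 1 lower, and without P0 27 genes were higher and 68 lower.

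**Figure D4:**
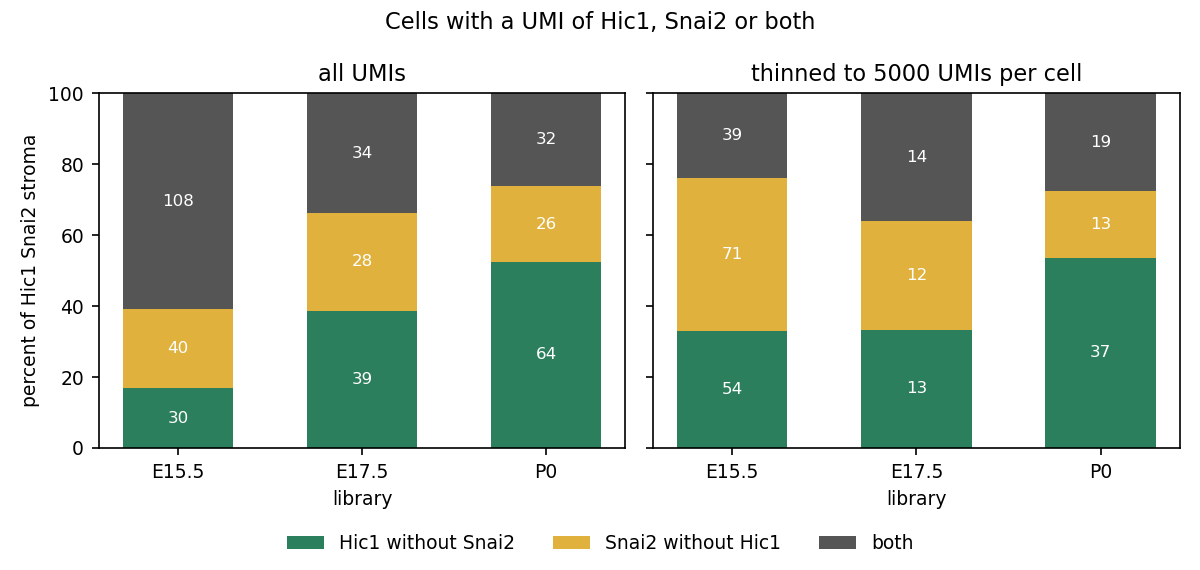
Percent of members with a UMI of Hic1 only, Snai2 only or both in each library, at full depth (left) and after thinning to 5000 UMIs per cell (right); numbers are cells. The share with both is 60.7%, 33.7% and 26.2% at full depth and lies between 23.8% and 35.9% after thinning.

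Across ages there is 1 library each, so levels are set side by side as ratios of CPM with exact conditional binomial 95% intervals for counting error, and no gene is called changed. Among 8124 genes with at least 50 UMIs, the P0 level was at least 2-fold above the E15.5 level for 575 (7.08%) and at least 2-fold below for 772 (9.5%), with a median log2 ratio of -0.09. Of 9 general stromal markers none passed 2-fold, with Meis1 at 143, 200 and 146 CPM, Tcf21 at 363, 358 and 417 CPM and Col1a1 at 891, 1265 and 924 CPM from E15.5 to P0. Of 15 elastic fibre genes 8 were at least 2-fold above at P0 and none below, with a median log2 ratio of 1.05, against 0.64 in Penk cells, 0.80 in Foxd1 cells, 1.86 in Pdgfra cells without Hic1 or Snai2 and 0.09 in all other kept cells.

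Fbln5 stood at 79.2, 226 and 336 CPM in the order of age (ratio P0 to E15.5 4.25, interval 3.62 to 4.98). Loxl1 stood at 30.7, 73.3 and 93.7 CPM (3.05, 2.30 to 4.03) and Fbln1, a fibulin of basement membranes and elastic fibres, at 153, 329 and 397 CPM (2.59, 2.27 to 2.95). Eln stood at 25.4, 94.4 and 123 CPM (4.85, 3.69 to 6.39), but 1 cell held 39.2% of its P0 UMIs. For each of these genes the E17.5 level lay between the other 2. In the matrix remodelling list 8 of 23 genes were at least 2-fold above at P0 and 1 below, with Timp3, an inhibitor of metalloproteinases, at 180, 461 and 639 CPM (3.55, 3.18 to 3.96) and Adamts5, an aggrecanase, at 19.3, 119 and 85.8 CPM (4.44, 3.21 to 6.14).

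Of 24 collagens and their enzymes 6 were at least 2-fold above at P0 and 3 below. The median log2 ratio was 0.27, and 0.03 without cells with mural UMIs. Those below were Col11a1, itself a fibrillar collagen, Col18a1 and Col23a1. Fibrillar Col1a1 (ratio 1.04, 0.963 to 1.11) and Col3a1 (1.03, 0.963 to 1.10) were near 1. Col6a1 stood at 94.3, 259 and 378 CPM (4.01, 3.46 to 4.64) and Col6a2 at 84.0, 161 and 304 CPM (3.62, 3.08 to 4.25). The collagen-modifying enzymes Plod2, a lysyl hydroxylase (6.03, 4.89 to 7.47), and P4ha1, a prolyl hydroxylase (3.52, 2.81 to 4.41), went with type VI collagen. In the other kept cells the log2 ratio of Col6a1 was 0.98 and in Penk cells 1.64. P4ha1 is also on the hypoxia and glycolysis list, whose median log2 ratio was 1.40 in members and 1.24 in the other kept cells.

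Among secreted signals, Cxcl12 stood at 82.4, 179 and 387 CPM (4.69, 4.03 to 5.46), a log2 ratio of 2.23 against 2.11 in Penk cells and 0.44 in the other kept cells. Rspo3 stood at 17.5, 27.7 and 75.9 CPM (4.34, 3.09 to 6.13), with a log2 ratio of 2.14 in Penk cells and -2.03 in the other kept cells. Serping1, the C1 inhibitor of complement (4.73, 3.89 to 5.76), was among 7 of 11 chemokine and complement genes at least 2-fold above at P0. Id1 and Id3, targets of BMP receptors, stood at 135, 816 and 731 CPM and at 614, 1364 and 2675 CPM. Their list, BMP and TGF-beta, had a median log2 ratio of 0.60 in members, 0.49 in Penk cells and 0.50 in the other kept cells. Rgs5 stood at 76.0, 415 and 424 CPM (5.58, 4.79 to 6.50), beside the mural cell shares of 15.2%, 52.5% and 53.3%; without the mural cells its log2 ratio was 1.62 in place of 2.48, and the mural list median was -0.08 in place of 0.28.

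The medullary and patterning genes had the opposite order. Cdkn1c stood at 1039, 850 and 350 CPM (2.97-fold lower at P0, interval 2.66 to 3.32), Wnt5a at 45.8, 42.3 and 13.8 CPM (3.32-fold, 1.93 to 6.20) and Alx1 at 58.5, 44.0 and 17.8 CPM (3.30-fold, 2.04 to 5.67). In the medullary list 5 of 9 genes were at least 2-fold below at P0 and 1 above, with a median of -1.01 against -0.12 in Penk cells. Without cells with mural UMIs the median in members was -0.65. The rule also cut members at 2 Penk UMIs at unlike depths (median 19563 UMIs at E15.5 and 7368.5 at P0). This list is therefore not independent of the rule between ages either. Of 24 Hox genes 7 were at least 2-fold below and none above, with Hoxd11 at 135, 79.8 and 48.3 CPM (2.80-fold, 2.09 to 3.84). The Hox median was -0.70 in members, -0.22 in Penk cells and -0.81 in Foxd1 cells. It was -0.89 in Pdgfra cells without Hic1 or Snai2 and -0.60 in the other kept cells, so this order was not particular to members. Hmga2, a chromatin protein of fetal growth, stood at 105, 34.2 and 14.8 CPM (7.09-fold, 4.25 to 12.8) and was seen in 103 members at E15.5 and 14 at P0. Gli1, a target of hedgehog signals, stood at 23.6, 14.7 and 1.97 CPM, the last from 2 UMIs (ratio 0.0837, 0.00998 to 0.311), and Lum, the proteoglycan lumican, at 140, 130 and 49.3 CPM (2.85-fold, 2.13 to 3.89). Proliferation genes did not pass 2-fold in either direction (0 of 20, median -0.17, against -0.69 in the other kept cells), with Top2a at 299, 319 and 274 CPM.

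**Figure D5:**
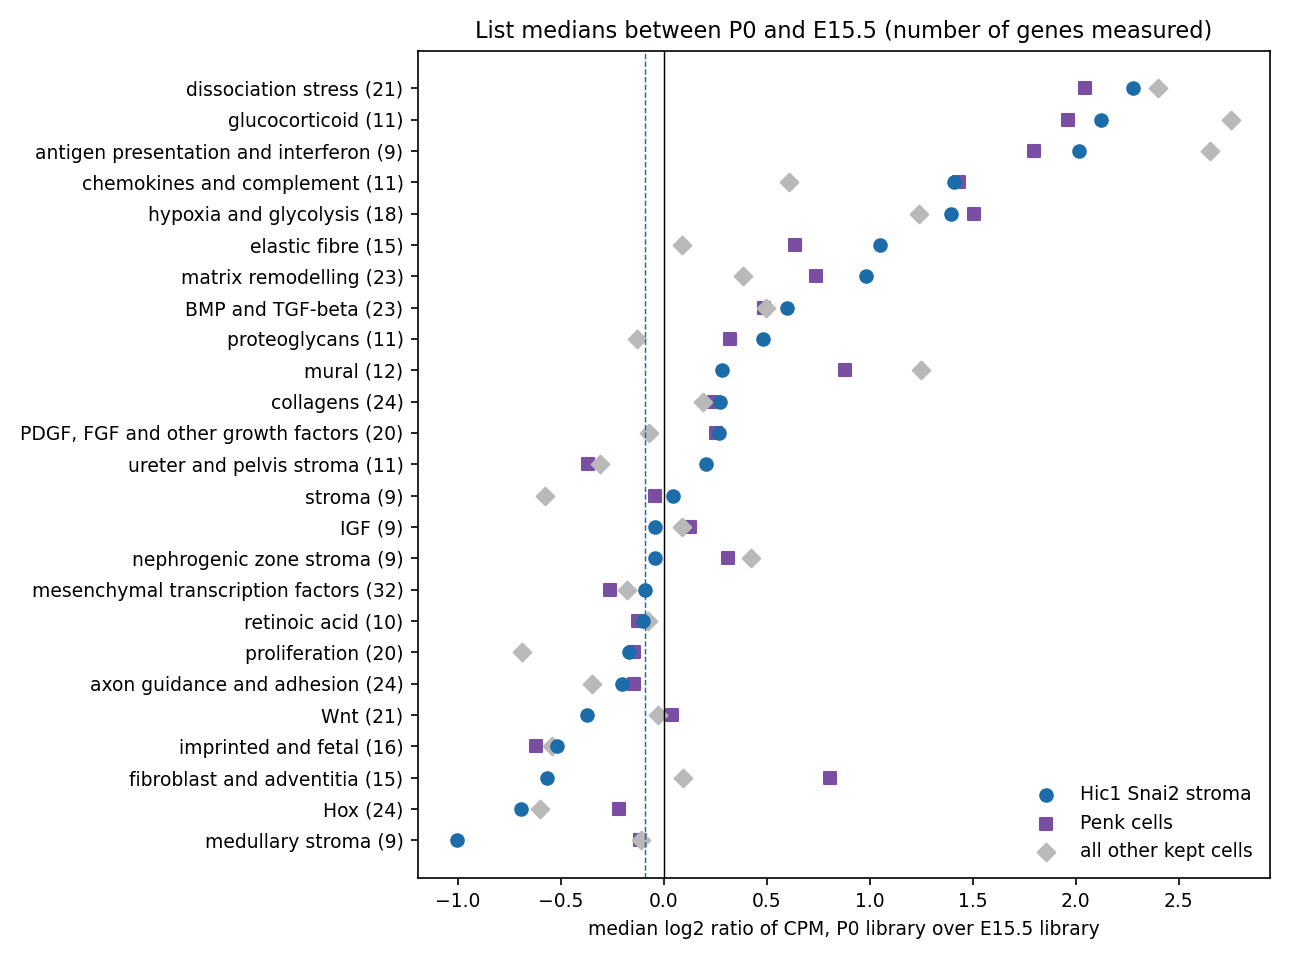
Median log2 ratio of CPM between the P0 and E15.5 libraries for 25 gene lists in members, Penk cells and all other kept cells; the number of genes measured follows each name and the dashed line is the median over all genes in members (-0.09). Elastic fibre genes (1.05) and medullary genes (-1.01) are lists where members lie outside both sets drawn with them. For elastic fibre genes the Pdgfra cells without Hic1 or Snai2, not drawn, gave 1.86. For medullary genes, members without cells with mural UMIs, not drawn, gave -0.65.

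Of the 10 genes with the highest P0 to E15.5 ratios by the interval bound nearest 1, 3 were on the dissociation stress list (Hspa1a, Hspa1b and Atf3). Hspa1a, a heat shock protein with a near-identical copy in Hspa1b, stood at 4.50, 114 and 1189 CPM (P0 to E15.5 ratio 264, 164 to 455), Atf3, a stress-induced factor, at 15.9, 179 and 411 CPM (25.9, 19.7 to 34.5), and Gadd45b at a ratio of 37.9. These ratios were not particular to the members: the dissociation stress list had 18 of 21 genes at least 2-fold above at P0 with a median of 2.28 in members, 2.05 in Penk cells and 2.40 in the other kept cells. The interferon and class I list had 8 of 9 above (2.02 in members, 2.65 in the other kept cells) and the hypoxia and glycolysis list 12 of 18 (1.40 and 1.24). Isg15, Bhlhe40 and Osmr ranked beside them on 1, 1 and 2 UMIs at E15.5, with a ratio interval of 39.9 to 9263 for Isg15. Cxcl1 (35.4, 18.4 to 76.1), Maff and Rgs4 completed the higher side.

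On the lower side of the same ranking, Tpm3-rs7, a gene copy of Tpm3 whose reads may be split with it, had 498 UMIs at E15.5 and 1 at P0. No P0 UMI was found for Calb1, a calcium-binding protein of distal nephron, Tfap2b, Slc26a7 or Dusp9, which had 76, 70, 67 and 66 UMIs at E15.5. The 217 Gzma UMIs at E15.5 came from 1 cell, and 1 cell held 83.0% of the Tmem52b and 44.7% of the Cdh1 UMIs. Emx2, a homeodomain factor of the nephron, had 127 UMIs at E15.5 and 2 at P0. In the epithelial list 7 of 9 genes were at least 2-fold below at P0 in members (median -1.74) while the median in the other kept cells was 0.59.

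Between E17.5 and E15.5, which also differ in strain, 501 of 7901 genes were at least 2-fold above at E17.5 (6.34%) and 453 below (5.73%). Klf2, a transcription factor of flow and stress responses, stood at 69.9 CPM at E15.5 and 814 at E17.5 (11.6, 10.0 to 13.6), and Nr4a1 (13.2, 10.1 to 17.4), Klf4 (12.1, 9.20 to 16.1) and Ppp1r15a (10.9, 8.90 to 13.4), all immediate response genes, were close to it. The interferon genes Isg15 and Ifi27l2a (44.0, 24.0 to 88.5) led the ranking. The stress list had a median log2 ratio of 2.17 in members and 2.11 in the other kept cells, where Klf2 gave 2.45 and Isg15 6.14. For Ren1, renin, 61.3% of the E17.5 UMIs came from 1 cell, and the log2 ratio was 0.83 without mural cells. Mt1 and Mt2 were lower at E17.5 (7.21-fold and 70.5-fold), with 62.6% and 44.8% of their E15.5 UMIs in 1 member, and the log2 ratio of Mt1 was 0.16 after thinning. Lhx1, a factor of nephron epithelium, had 129 UMIs at E15.5 and none at E17.5, and Uncx had 218 and 3.

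Between P0 and E17.5, 122 of 4547 genes were at least 2-fold above at P0 (2.68%) and 112 below (2.46%). Hspa1a (10.4, 8.19 to 13.5), Dnajb1, its cochaperone (3.42, 2.61 to 4.53), Klf9, a glucocorticoid-induced factor (3.47, 2.57 to 4.77), and Ctgf, a matricellular target of stretch signals (6.24, 3.53 to 12.0), were above. The histone genes Hist1h1e (5.25-fold, 3.91 to 7.15) and Hist1h1b (4.68-fold, 3.28 to 6.79) and Cdkn1c (2.43-fold, 2.12 to 2.79) were below, and reads of the histone genes may be split among their copies. All 72 Upk3a UMIs at E17.5, a urothelial plaque gene, came from 1 cell.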

How the data were processed

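Single-cell RNA of whole kidney was measured with 10x Genomics 3′ v2 chemistry in 4 libraries. Each deposited matrix holds counts of UMIs, made by the authors with Cell Ranger 3.1.0 on GRCm38 per the submitters' processing notes; per the file headers the version was 3.0.2 for E15.5 and P0. How reads of near-identical genes and strand were treated is not given in the sources used here. The members, the gene lists and the comparisons were chosen with earlier results of these data known.

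UMIs were summed per library and cell set. Contrasts between cell sets of the same libraries used edgeR 4.0.16 in R 4.3.3 (TMM, filterByExpr, glmQLFit, glmQLFTest, library as block), with an adjusted p under 0.05 called, and were tested on simulated data first. The 6 genes of the rule were left out as results. With the library as a block, p-values measure how far the difference between cell sets within a library varies over 3 libraries that differ in age. With 1 library per age, ages were compared by ratios of CPM only (at least 50 UMIs over both libraries, fold of 2), with intervals from scipy 1.17.1. Scrublet in scanpy 1.11.5 gave the doublet calls, and cells were thinned with random seed 1. Named genes are, per contrast, the 8 highest and 8 lowest log2 differences among called genes of the same sign in all 3 libraries and at least 20 CPM in the higher set, per pair of ages the 10 on each side by the interval bound nearest 1, and genes of the 35 lists; genes of the Y chromosome, mitochondria, ribosome and globins, Xist and transgenes were not named except as checks. Alternatives were DESeq2 1.42.0, no count filter, doublet removal, thinning to 5000 UMIs, no block, each library left out, at least 1000 genes, at most 10% mitochondrial UMIs, at least 2 UMIs of Hic1 and Snai2, other UMI minimums, a mean over cells and a median-scaled ratio. Leaving out cells with mural UMIs or with an Epcam or Cdh1 UMI was chosen after seeing the data. Figures were drawn with matplotlib 3.10.9. Some genes counted in these totals are not reported here by name.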

Additional observations from a re-analysis of the deposited data

Results flagged for a closer look

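A tdTomato reporter transcript, outside the mouse genes compared above, was present in members of the P0 library at 389.6 CPM (395 UMIs), against 0 in members of the E15.5 and E17.5 libraries. Within the P0 library it stood at 174.7 CPM in Foxd1 cells, 219.1 in Penk cells, 155.9 in Pdgfra cells without Hic1 or Snai2, 93.6 in cells with at least 3 Pecam1 UMIs and 47.9 in Epcam cells. The label gives the P0 mice as wild type.

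In the transplant library, which enters no comparison, 287 of 6618 kept cells met the same conditions (4.337%). Of these cells 97 carried both Hic1 and Snai2 (33.8%), and their median depth was 6179 UMIs.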

How the results depend on the processing

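Against Foxd1 cells (38 genes higher, 7 lower) the counts were 177 and 78 without a count filter, 120 and 90 without doublets, 100 and 44 with at least 2 UMIs of Hic1 and Snai2, 92 and 38 without cells with an Epcam or Cdh1 UMI, 0 and 0 without the library block (162 at an unadjusted p under 0.05), 23 lower after thinning, 11 lower at 10% mitochondrial UMIs, 11 higher without mural cells, and 0 to 93 and 0 to 50 with a library left out. Against Penk cells (292 and 310) they were 132 and 174 with DESeq2, 500 and 496 without a filter, 192 and 180 after thinning, 10 and 39 without the block, 186 higher without mural cells, and 122 to 393 and 176 to 369 with a library left out. Against Pdgfra cells without Hic1 or Snai2 (141 and 230) they were 504 and 537 without a filter, 48 and 42 after thinning, 0 and 0 without the block, 71 and 94 without Epcam or Cdh1 cells, 420 higher without mural cells, and 85 to 241 and 117 to 371 with a library left out. For Hic1 against Snai2 members (0 and 2) they were 24 and 41 without a filter, 1 lower with DESeq2 and without doublets, 1 and 0 after thinning, 0 lower without the block and without mural cells, 1 and 4 without Epcam or Cdh1 cells, and 0 to 27 and 0 to 68 with a library left out. Between P0 and E15.5 (575 genes at least 2-fold above, 772 below) thinning gave 264 and 241, a minimum of 20 UMIs 1376 below, a minimum of 200 UMIs 223 and 165, and leaving out Epcam or Cdh1 cells 486 below. Between E17.5 and E15.5 (501 and 453) thinning gave 209 and 143, 20 UMIs 803 and 902, and 200 UMIs 137 and 88. Between P0 and E17.5 (122 and 112) thinning gave 57 and 65, 20 UMIs 267 and 444, 200 UMIs 27 and 8, at least 2 UMIs of Hic1 and Snai2 77 and 59, leaving out mural cells 72 and 65, and scaling to a median of 0 gave 69 below. The share at E15.5 was 4.10% with at least 2 UMIs of Hic1 and Snai2, 6.81% without Epcam or Cdh1 cells and 17.0% of Pdgfra cells. At E17.5 it was 1.14% after thinning, 1.18% with 2 UMIs, 1.16% without mural cells, 3.43% without Epcam or Cdh1 cells and 27.7% of Pdgfra cells, and at P0 1.04%, 0.704%, 0.777%, 2.55% and 23.6%. The log2 ratio changed sign for Mt1 (E17.5 to E15.5) after thinning (0.16) and without Epcam or Cdh1 cells (0.12), for Krt18 (P0 to E17.5) without doublets (0.94), after thinning (0.23) and without Epcam or Cdh1 cells (0.61), and for Sostdc1 (P0 to E17.5) after thinning (0.56); the cause was not tested. Of the other values for named genes 981 kept direction and call, 82 lost the call and 61 moved. The ratios of Gzma, Tmem52b, Tfap2b, Cdh1, Lhx1, Upk3a, Serpini1 and Ren1 gave no value where both libraries fell to 3 UMIs or fewer. Depth per member, lowest at E17.5, limits what a single UMI rule can find.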
